A study of Mus musculus with 9 samples.

Results

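The gene set described here consists of 6 ligands of the epidermal growth factor receptor and the receptor itself: Hbegf, Areg, Ereg, Btc, Tgfa, Egf and Egfr. Its members were chosen by name, not by their values: every non-control probe whose RefSeq accession belonged to one of the 7 genes was taken. This gave 9 of the 55681 probes on the array, 1 for each ligand and 3 for Egfr. The probes of Tgfa and Egf and 1 probe of Egfr were printed as 10 spots on each array, and the other probes as 1 spot.

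RNA from the brains of adult male C57BL/6 mice (strain label C57/BL6) aged 50, 52 or 53 days was measured on 1-colour Agilent arrays, with 3 arrays of different mice in each of 3 groups. Sham mice had sham surgery, and no injection is described for them. MCAO mice had a middle cerebral artery occluded for 90 min, a model of transient focal stroke, and received 1 µl of vehicle (0.01 M PBS) in the right lateral ventricle at 3 h of reperfusion. In the VEGF group, mice were occluded for as long and received, by that route and at that time, 1 µl of recombinant human VEGF-A165, a growth factor for blood vessels, at 10 µg/ml in the vehicle. All occluded brains were taken 24 h after reperfusion, which was 21 h after the injection. The labels do not say which part or side of the brain was homogenised. The comparisons below therefore ask how ligand and receptor transcripts differed between occluded and sham brains, and between VEGF and vehicle given after occlusion.

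The ligands of the EGF receptor are made as proteins that span the cell membrane, and membrane proteases of the ADAM family cut them loose. A freed or membrane-held ligand binds EGFR (and, for some ligands, ERBB4), the receptor pairs with itself or with another ErbB receptor, and its kinase starts the RAS to MAP kinase, PI3 kinase and STAT3 pathways. In the brain, EGF and heparin-binding EGF-like growth factor (HB-EGF) are known for acting on neural progenitor cells and astrocytes. Ereg, Areg and Btc lie in 1 cluster on mouse chromosome 5, and transcripts of several of these ligands are known to respond quickly to growth factors and inflammation.

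The bases just before the RefSeq start sites of Areg and Btc, 2 genes of that cluster, are shown here because both were highest on the same arrays (below). Each is 250 bases, 5′ to 3′ on the gene's own strand, in build GRCm38.p6. The Areg sequence is chr5:91139349-91139598 on the plus strand and the Btc sequence is chr5:91402995-91403244 on the minus strand. Capitals mark a cyclic AMP response element.
Areg: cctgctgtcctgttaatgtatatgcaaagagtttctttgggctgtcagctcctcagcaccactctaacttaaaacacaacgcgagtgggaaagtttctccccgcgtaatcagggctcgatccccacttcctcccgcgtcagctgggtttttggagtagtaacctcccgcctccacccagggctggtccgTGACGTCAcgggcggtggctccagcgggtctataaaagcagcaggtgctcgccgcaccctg
Btc: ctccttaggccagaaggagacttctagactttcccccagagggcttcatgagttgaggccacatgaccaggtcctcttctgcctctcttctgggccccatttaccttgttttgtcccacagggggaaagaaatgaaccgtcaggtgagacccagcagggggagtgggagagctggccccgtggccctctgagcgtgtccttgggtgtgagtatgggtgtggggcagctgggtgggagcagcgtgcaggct
In all, 4 motifs were sought on both strands of the promoter windows, which run from 250 bases before to 50 bases after the start: the cyclic AMP response element TGACGTCA, the AP-1 site TGAGTCA, the CArG box bound by serum response factor, and the NF-kB site. The motifs share no match in these windows. Among the 6 windows of 5 members (Areg, Btc, Tgfa, Egfr and both start sites of Egf), the only match was the element in capitals, from 61 to 54 bases before the Areg start. No window of Hbegf or Ereg was among those searched. Of all 32851 RefSeq mouse windows of this length, 1.8% held that element, 5.2% the AP-1 site, 1.6% the CArG box and 4.5% the NF-kB site. A match is a description of letters, and no protein binding was measured.

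All levels below are log2 processed signals scaled within each array, so that 0 is the 75th percentile of its non-control probes. Differences come from a limma fit to 30836 genes over all 9 arrays, with Benjamini-Hochberg adjustment over all of them, and a gene is said to have risen or fallen where the adjusted p was below 0.05. A difference of 1 is a 2-fold change. The fit's median standard error was 0.31. Between 73.0% and 81.8% of spots per array were well above background by the scanner software's own test, and no spot was saturated. All 14 neuron markers and all 10 astrocyte markers sought were well above background on every array of this tissue labelled as brain.

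MCAO array 1 and VEGF array 1 stood apart from the other 4 occluded arrays, and the member results are given with and without them. Their 75th percentile signals were 797 and 723, against 1320 to 1770 on the other occluded arrays and 1250 to 1340 on the sham arrays. The median of the neuron markers was 2.43 below the sham mean on both arrays (log2 values of -2.43), against -0.73 to -0.36 on the other 4. MCAO array 1 was also scanned on another day, and its processed signal lacks the spatial detrending that the other 8 arrays show. The 3 sham arrays were on 1 slide and the 6 occluded arrays on another, so slide and occlusion cannot be told apart. The comparison of VEGF with MCAO lies within 1 slide.

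Hbegf, which encodes HB-EGF, was higher in every occluded brain than in every sham brain. Its normalised log2 level was 0.13, 0.55 and 0.42 in sham arrays 1 to 3, then 3.43, 2.88 and 2.74 in MCAO arrays 1 to 3, and 4.26, 3.03 and 2.04 in VEGF arrays 1 to 3. The groups did not overlap: the lowest occluded array, VEGF array 3, lay above the highest sham array. The deposited signals were 1370 to 1960 in sham, 8580 to 13000 in MCAO and 5440 to 13900 in VEGF, well above background on all 9 arrays. Hbegf rose by 2.65 ± 0.50 (log2, SE, n = 3 against 3; 6.27-fold, 95% interval 1.52 to 3.78) in MCAO against sham, with an adjusted p of 0.0298 by limma. It rose by 2.75 ± 0.50 (6.72-fold) in VEGF against sham, with an adjusted p of 0.0279 by limma.

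Hbegf alone among the 7 members was called in MCAO against sham, a comparison in which 2.81% of all genes were called and 2.28% were called higher. It was likewise the only member called in VEGF against sham, in which 2.43% of genes were called and 2.07% called higher. The mean of both occluded groups stood 2.70 ± 0.43 above sham (adjusted p = 0.0112 by limma), in a comparison that called 5.62% of genes and 4.24% higher. Without MCAO array 1 and VEGF array 1 the Hbegf difference was 2.44 ± 0.30 in MCAO (adjusted p = 0.00423 by limma) and 2.17 ± 0.30 in VEGF (adjusted p = 0.00791 by limma). The call was lost in several fits with 1 array fewer: in MCAO against sham, leaving out any single sham array gave adjusted p values of 0.097 to 0.147 (0.619% to 0.83% of all genes called), and leaving out any single MCAO array gave 0.0614 to 0.0774. The difference itself ranged from 2.44 to 2.79 over those fits. In VEGF against sham the adjusted p was 0.0975 to 0.14 without a sham array and 0.0599 without VEGF array 2.

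**Figure D1:**
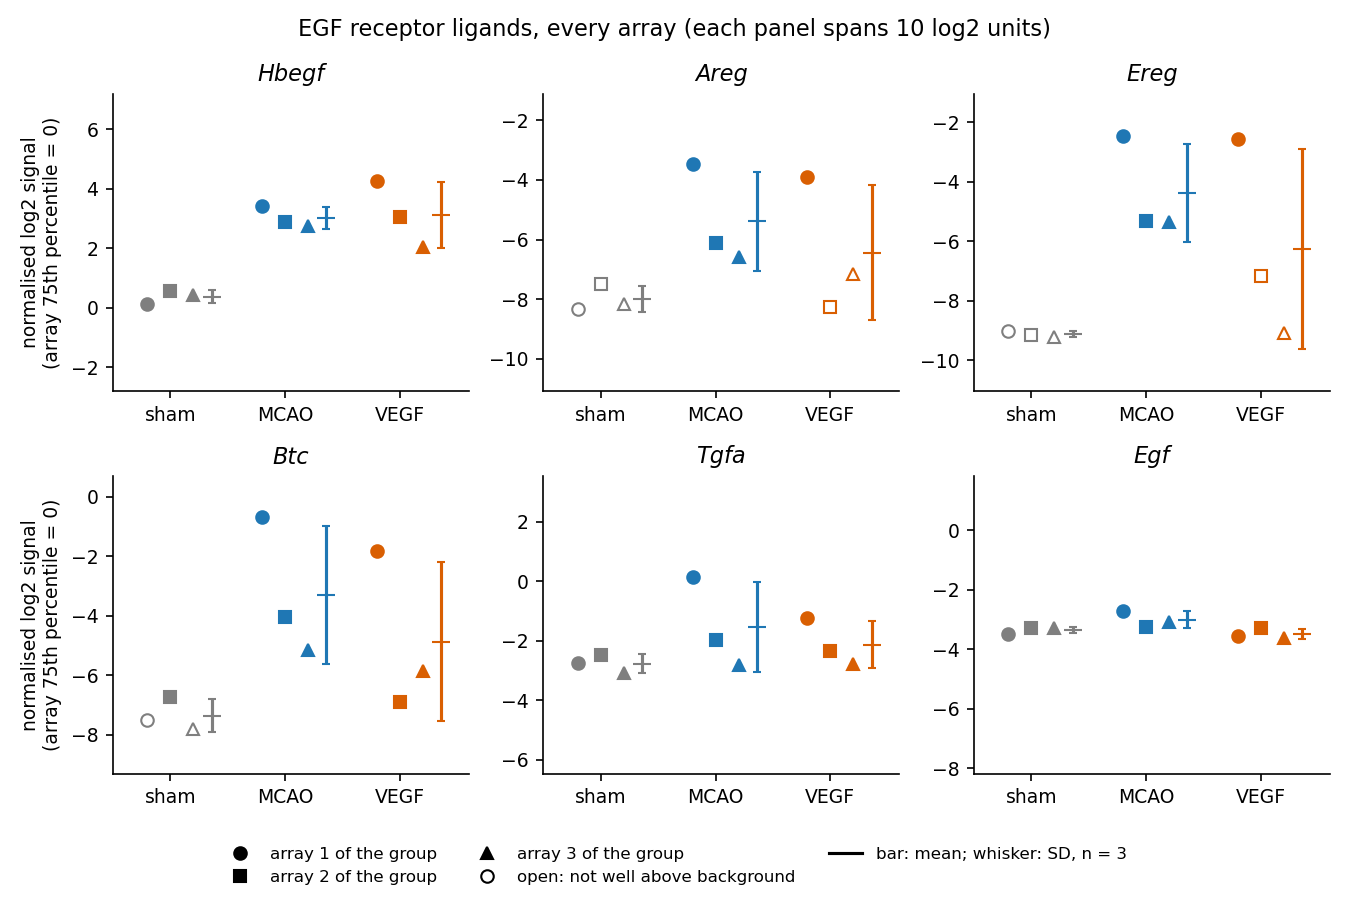
Normalised log2 signal of the 6 ligands on every array (y axis, 0 is the array's 75th percentile), by group; each point is 1 mouse, open points are not well above background, and bars are means ± SD over 3 arrays, open points included. All 6 occluded arrays lie above sham for Hbegf. For Hbegf, Areg, Ereg, Btc and Tgfa the circles of MCAO array 1 and VEGF array 1 are the highest points.

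Ereg (epiregulin) was well above background on none of the sham arrays and on each of the 3 MCAO arrays. Its level was -9.01, -9.16 and -9.21 in sham, -2.47, -5.32 and -5.35 in MCAO, and -2.56, -7.17 and -9.07 in VEGF. In deposited signal that is 2.27 to 2.43 in sham, 144, 44.4 and 42 in MCAO, and 123, 10.8 and 2.45 in VEGF. Every MCAO array lay above every sham array, while among the VEGF arrays only array 1 was well above background and array 3 lay within the sham range. The MCAO mean was 24-fold above sham set at a floor. That floor was each sham array's lowest signal well above background over all probes, or the gene's own signal where higher. Such a fold compares means and leaves out the spread between arrays, so it is not a lower limit. The fit gave 4.75 ± 1.49 with an adjusted p of 0.13 by limma, so the difference did not pass over all 9 arrays. For VEGF, with 1 of 3 arrays measured, the fit gave 2.86 (adjusted p = 0.268 by limma). With normexp background correction the MCAO difference of Ereg was 1.07 (adjusted p = 0.429 by limma).

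Areg (amphiregulin), which neighbours Ereg on the chromosome, was also below detection in sham. Its level was -8.33, -7.51 and -8.17 in sham, -3.48, -6.12 and -6.58 in MCAO, and -3.89, -8.27 and -7.16 in VEGF. It was well above background on 0 of 3 sham, 3 of 3 MCAO and 1 of 3 VEGF arrays, with deposited signals of 3.88 to 7.35 in sham against 71.5, 25.5 and 17.9 in MCAO. The MCAO arrays all lay above sham, VEGF array 1 lay with them, VEGF array 2 lay within the sham range and VEGF array 3 just above it. Set against the same floor, the MCAO mean was 6.12-fold above sham. This equals the fit's own difference, whose 95% interval was 0 to 5.22 in log2. The fit gave 2.61 ± 1.14 (adjusted p = 0.233 by limma) for MCAO and 1.56 ± 1.14 (adjusted p = 0.403 by limma) for VEGF, the latter from 1 VEGF array above detection and 2 below it. With normexp background the MCAO difference was 0.51 (adjusted p = 0.673 by limma).

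The pattern of no sham array and all 3 MCAO arrays well above background was held by 311 of the 55681 probes (0.559%). Of these, 64 (0.115% of all probes) were, like Areg and Ereg, detected on at most 1 VEGF array, and 170 (0.305%) were detected on all 3. Areg and Ereg entered the test only through the MCAO arrays, so their direction against sham was set by that filter. It also favoured a lower level in VEGF than in MCAO for both.

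Btc (betacellulin), the third ligand gene of the cluster, was detected on 1 of 3 sham arrays and on all 6 occluded arrays. Its level was -7.51, -6.74 and -7.82 in sham, -0.70, -4.06 and -5.14 in MCAO, and -1.84, -6.91 and -5.87 in VEGF. All MCAO arrays were above sham, and VEGF array 2 lay within the sham range. The differences were 4.06 ± 1.43 (adjusted p = 0.163 by limma) in MCAO and 2.49 ± 1.43 (adjusted p = 0.305 by limma) in VEGF, and with normexp background they were 1.65 and 1.04 (adjusted p = 0.353 and 0.565 by limma). Btc passed the filter through the occluded groups only, which bears on its direction against sham too.

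Ereg, Areg and Btc placed the same 4 arrays first and in the same order: MCAO array 1, VEGF array 1, MCAO array 2, MCAO array 3. On MCAO array 1 the levels stood 6.66 (Ereg), 4.53 (Areg) and 6.66 (Btc) above the sham mean, and on MCAO arrays 2 and 3 between 3.78 and 3.81, 1.43 and 1.89, and 2.22 and 3.30. Leaving out MCAO array 1 and VEGF array 1 (3 sham and 2 MCAO arrays compared), all of Ereg (3.79 ± 0.50, adjusted p = 0.00547), Areg (1.66 ± 0.39, adjusted p = 0.0297) and Btc (2.76 ± 0.49, adjusted p = 0.0126) were called higher in MCAO by limma. Set against the floor in sham, the mean of those 2 MCAO arrays was 12.4-fold higher for Ereg and 3.15-fold higher for Areg. The filter had let in all 3 of these genes through the occluded groups, so their direction is no separate result. That fit called 4 of the 7 members, Hbegf included, and 22.8% of all genes (9.78% higher). In VEGF against sham the same fit called Hbegf alone, with 19.9% of all genes called (8.71% higher). Btc differed by 0.97 there (adjusted p = 0.201 by limma), while Ereg and Areg were below detection on both remaining VEGF arrays as on the sham arrays, so no difference is given for them. For the mean of both occluded groups against sham it called 3 members, Hbegf, Ereg and Btc, and 30.8% of genes (12.6% higher), with Ereg detected on the 2 MCAO arrays alone.

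Other genes around the cluster were read from RefSeq order, in which Cxcl2, Mthfd2l and Epgn come before Ereg, Areg and Btc, and Parm1 and Rchy1 come after. Epgn, which encodes epigen, a further EGFR ligand, was well above background on all 9 arrays. Its level was -4.29, -4.18 and -4.79 in sham, -3.33, -4.01 and -4.29 in MCAO, and -3.88, -4.36 and -4.07 in VEGF. These groups overlapped, and the difference of 0.55 ± 0.29 in MCAO had an adjusted p of 0.312 by limma. Cxcl2, a chemokine that draws neutrophils, was -9.07, -9.19 and -9.27 in sham, -1.79, -4.36 and -1.74 in MCAO, and -0.38, -5.21 and -2.69 in VEGF. No sham array detected it, while all 6 occluded arrays did. Set against the floor in sham, the mean of Cxcl2 was 81.1-fold higher in MCAO and 74.2-fold higher in VEGF. The fit itself, which used the sham signals below detection, gave 6.55 ± 1.14 in MCAO (adjusted p = 0.0228 by limma). In VEGF it gave 6.42 ± 1.14 (adjusted p = 0.0257 by limma). Without MCAO array 1 and VEGF array 1 the rises over that floor were 60.7-fold in MCAO and 32.5-fold in VEGF. Like the 3 ligands it entered the test through the occluded groups, which set its direction. Mthfd2l (0.31 ± 0.25 in MCAO, 0.65 ± 0.25 in VEGF), Parm1 (-1.01 ± 0.38 and -0.77 ± 0.38) and Rchy1 (0.16 ± 0.19 and 0.17 ± 0.19) did not pass, the smallest adjusted p by limma being 0.176.

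Tgfa, which encodes transforming growth factor alpha, was well above background on all 9 arrays. Its level was -2.76, -2.47 and -3.08 in sham, 0.15, -1.97 and -2.81 in MCAO, and -1.25, -2.35 and -2.79 in VEGF. MCAO array 1 and VEGF array 1 were again the highest. MCAO array 3 and VEGF array 3 lay within the sham range, and MCAO array 2 and VEGF array 2 lay above it. The differences of 1.22 ± 0.71 (adjusted p = 0.339 by limma) in MCAO and 0.64 ± 0.71 (adjusted p = 0.578 by limma) in VEGF did not pass, and without those 2 arrays they were 0.38 and 0.20. The 10 spots of its probe had an SD of 0.0423 to 0.1002 within an array.

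Egf, the ligand after which the receptor is named, had the smallest differences from sham among the ligands. Its level was -3.48, -3.29 and -3.30 in sham, -2.70, -3.24 and -3.08 in MCAO, and -3.57, -3.30 and -3.61 in VEGF. The deposited signals were 112 to 137 in sham, 123, 187 and 203 in MCAO, and 60.8, 157 and 108 in VEGF. Before scaling, MCAO array 1 thus lay within the sham range. Every MCAO array lay above every sham array, by as little as the step from -3.29 to -3.24, and every VEGF array lay at or below the top of the sham range. The differences were 0.35 ± 0.20 (95% interval -0.12 to 0.81, adjusted p = 0.342) in MCAO and -0.14 ± 0.20 in VEGF, neither past the threshold by limma. The spots of this probe had an SD of 0.0408 to 0.1241 within an array.

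Over the 7 members, 5 had all MCAO arrays above all sham arrays (Hbegf, Areg, Ereg, Btc and Egf), a pattern held by 19.6% of all genes tested. For VEGF above sham it was 1 member, Hbegf, against 18.2% of genes. Only Hbegf had all 6 occluded arrays above sham, which 14.6% of genes showed. Since Areg and Ereg passed the filter through the MCAO arrays, the first count is a description.

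Egfr, the receptor, was measured by 3 probes, and on 1 of them all occluded arrays lay above sham after scaling. The probe with the highest signal, A_52_P106259, is listed under one RefSeq transcript of the gene, and the other 2, A_55_P1956862 and A_55_P1956863, under another. On A_52_P106259 the level was -0.31, 0.02 and -0.05 in sham, -0.44, 0.31 and 0.18 in MCAO, and 0.91, -0.02 and 0.12 in VEGF. The groups overlapped, with MCAO array 1 lowest of all and VEGF array 1 highest. The differences of 0.13 ± 0.30 (95% interval -0.56 to 0.82) in MCAO and 0.45 ± 0.30 in VEGF did not pass by limma. Its 10 spots had an SD of 0.0416 to 0.07 within an array.

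On A_55_P1956862 all 6 occluded arrays lay above the 3 sham arrays after scaling. In deposited signal MCAO array 1 read 118, below the 3 sham arrays (158, 132 and 126). The level was -2.98, -3.34 and -3.41 in sham, -2.76, -1.97 and -2.20 in MCAO, and -0.83, -2.21 and -2.45 in VEGF. In a fit of every probe on its own the differences were 0.94 ± 0.42 (adjusted p = 0.254) in MCAO, 1.41 ± 0.42 (adjusted p = 0.121) in VEGF and 1.17 ± 0.36 (adjusted p = 0.0975) in both occluded groups, none past the threshold by limma. A_55_P1956863, listed under the same transcript, was -1.77, -1.93 and -2.14 in sham, -1.88, -1.67 and -1.88 in MCAO, and -0.70, -1.86 and -1.97 in VEGF. It differed from sham by 0.14 in MCAO and 0.44 in VEGF, close to the values of A_52_P106259. The difference between A_55_P1956862 and A_52_P106259 on the same array was -2.68, -3.37 and -3.37 in sham, -2.32, -2.28 and -2.38 in MCAO, and -1.74, -2.20 and -2.56 in VEGF. These within-array differences were less negative on every occluded array than on any sham array. This difference between probes was not tested. Over all genes, each by its brightest probe, 14.6% had all 6 occluded arrays above sham.

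**Figure D2:**
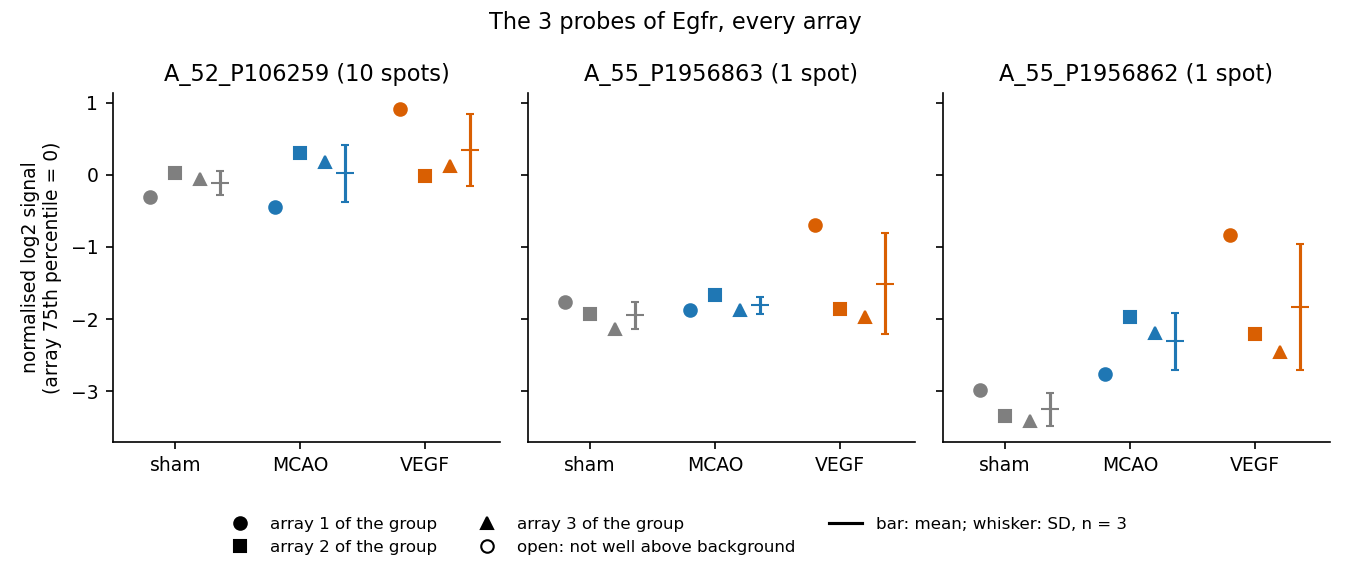
Normalised log2 signal of the 3 Egfr probes on every array (y axis, 0 is the array's 75th percentile), by group; each point is 1 mouse and bars are means ± SD over 3 arrays. The right-hand probe, A_55_P1956862, has all 6 occluded arrays above sham after scaling, while the other 2 overlap with sham.

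VEGF and vehicle after occlusion were compared directly on the 6 occluded arrays. No member was called by limma, against 0.00649% of genes (2 of 30836), and 1 member had an unadjusted p below 0.05, against 2.78% of genes. Hbegf differed by 0.10 ± 0.50 (95% interval -1.03 to 1.23, adjusted p = 1 by limma), an interval that still allows a difference of about 2-fold either way. Ereg (-1.89 ± 1.49), Btc (-1.57 ± 1.43), Areg (-1.05 ± 1.14) and Tgfa (-0.59 ± 0.71) were lower in VEGF than in MCAO, none past the threshold. The member with the unadjusted p below 0.05 was Egf, lower by 0.49 ± 0.20 in VEGF (unadjusted p = 0.0406, adjusted p = 1 by limma). All 3 MCAO arrays lay above all 3 VEGF arrays for Egf, as they did for 3.48% of genes. In deposited signal they overlapped, with 123 on MCAO array 1 and 157 on VEGF array 2.

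MCAO and VEGF arrays of the same replicate number deviated together from their group means over all genes (r = 0.587, 0.224 and 0.558 for numbers 1, 2 and 3). Within these pairs VEGF minus MCAO was -0.09, -1.85 and -3.73 for Ereg, -0.42, -2.15 and -0.58 for Areg, -1.14, -2.85 and -0.74 for Btc, and -0.87, -0.06 and -0.53 for Egf. For Ereg and Areg the VEGF arrays of pairs 2 and 3 were below detection. The filter let both in through the MCAO arrays alone, which favours a lower level in VEGF. For them the count of pairs is therefore a description. These 4 members, Ereg, Areg, Btc and Egf, were lower in VEGF in all 3 pairs, as were 13.6% of all genes. Hbegf was lower in 1 pair (0.84, 0.16 and -0.69). In a fit of the 6 occluded arrays with the number as a block, chosen after the data were seen, no member was called and the adjusted p was 0.902 for each of those 4 and 0.961 for Hbegf by limma.

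Without MCAO array 1 and VEGF array 1, 2 arrays remained per group and no member passed either, in a fit that called 0.00973% of genes. Ereg then had a difference of -2.79 ± 0.55 (unadjusted p = 0.00183, adjusted p = 0.366 by limma). Its mean on the 2 MCAO arrays was 5.2-fold above the 2 VEGF arrays set at their floor. Btc differed by -1.79 ± 0.53 (adjusted p = 0.58 by limma) and Areg by -1.37 ± 0.43 (adjusted p = 0.598 by limma). An unadjusted p below 0.05 was found for these 3 members and for 7.38% of all genes. Ereg and Areg had entered the test through the MCAO arrays alone, which favours a lower level in VEGF. Both were below detection on the remaining VEGF arrays, so their differences rest on unmeasured signals and their direction is no separate result. Hbegf differed by -0.27 ± 0.33 (adjusted p = 0.869 by limma).

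**Figure D3:**
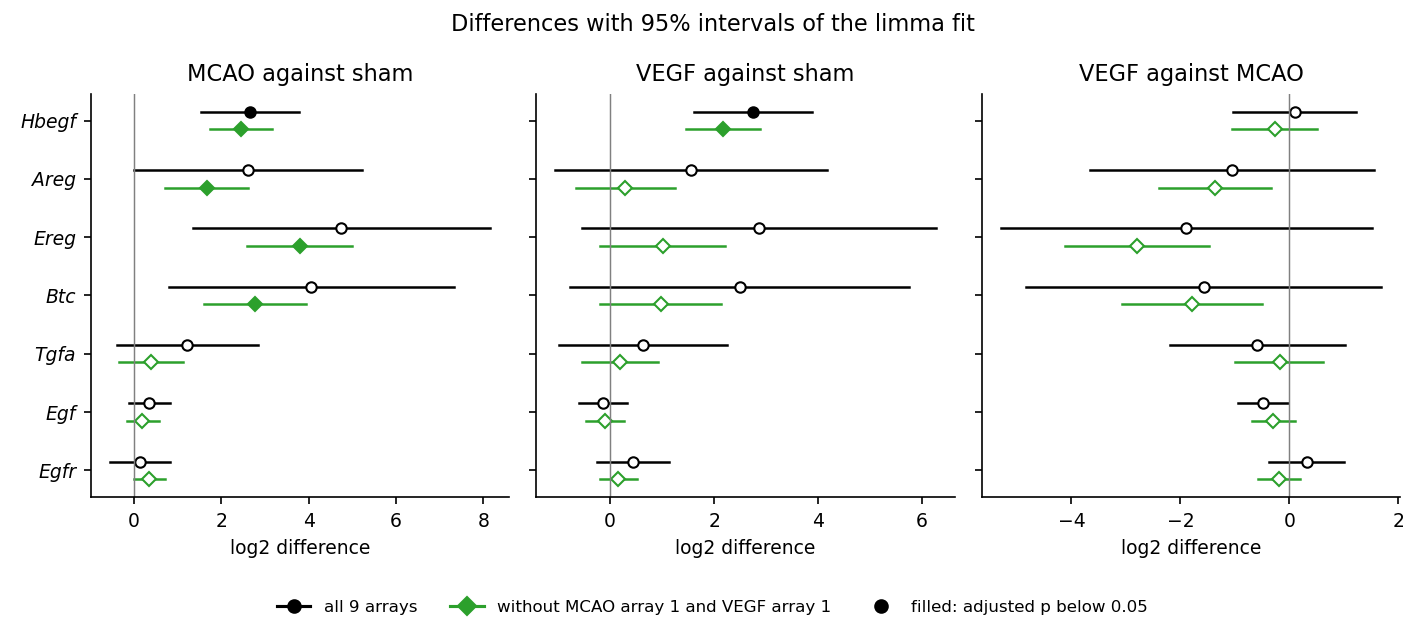
Log2 differences of the 7 members with 95% intervals of the limma fit (x axis) in 3 comparisons; black circles use all 9 arrays, green diamonds leave out MCAO array 1 and VEGF array 1, and filled symbols have an adjusted p below 0.05. Hbegf is filled in both fits against sham, Areg, Ereg and Btc only in MCAO without those arrays, and nothing is filled in VEGF against MCAO. The diamonds of Areg and Ereg in VEGF against sham compare arrays that were all below detection. In VEGF against MCAO their diamonds rest on VEGF arrays below detection.

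The genes around the receptor were followed in 5 lists, given here in the order of the pathway. The counts stand beside the median over all genes tested, which was -0.04 in MCAO and -0.12 in VEGF against sham. Of all genes, 2.28% were called higher in MCAO and 2.07% in VEGF. A single gene risen in the adaptor or the feedback list is near that share. None of the lists had a gene called in VEGF against MCAO by limma. The unadjusted p in that comparison was below 0.05 for 1 gene, in the adaptor list. Beside each list stands its count without MCAO array 1 and VEGF array 1. That fit called 22.8% of all genes in MCAO (9.78% higher) and 19.9% in VEGF (8.71% higher) against sham. The list of other ErbB genes had none called there.

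Of the 8 other ErbB receptors and ligands (Epgn and the neuregulins among them), none was called in either occluded group by limma. The unadjusted p was below 0.05 for 1 of them in each, against 21.4% of all genes in MCAO and 23.5% in VEGF, and the medians were 0.17 in MCAO and 0.25 in VEGF. Erbb4, a neuregulin receptor that also binds HB-EGF and betacellulin, was well above background on every array but VEGF array 1 and had differences of -0.73 ± 0.33 (adjusted p = 0.25) in MCAO and -0.86 (adjusted p = 0.178 by limma) in VEGF. Erbb3, a receptor with little kinase activity of its own, had a difference of 0.89 ± 0.37 (adjusted p = 0.221 by limma) in MCAO.

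Of 12 genes for cutting and trafficking the ligands, 11 were measured. In MCAO 3 rose and none fell, with a median of 1.08, and in VEGF 2 rose and none fell, with a median of 0.86. Without the 2 arrays 5 rose and none fell in each. Adam8, a metalloprotease carried by leukocytes and microglia, had a level of -1.36, -1.25 and -0.69 in sham, 4.88, 3.29 and 3.11 in MCAO, and 5.31, 2.59 and 2.59 in VEGF. It rose by 4.86 ± 0.76 (adjusted p = 0.0154) in MCAO and by 4.6 (adjusted p = 0.02, both by limma) in VEGF, with no overlap between occluded and sham arrays. Cd9, a tetraspanin that binds membrane HB-EGF, rose by 2.26 ± 0.45 in MCAO (adjusted p = 0.0383 by limma) and differed by 2.05 in VEGF (adjusted p = 0.0598 by limma). Rhbdf2, the rhomboid-like partner that brings the ligand sheddase ADAM17 to the cell surface, rose by 2.93 ± 0.62 in MCAO (adjusted p = 0.0483 by limma) and differed by 2.76 in VEGF (adjusted p = 0.0634 by limma). Its relative Rhbdf1 rose by 1.54 in VEGF (adjusted p = 0.0476 by limma) and differed by 1.15 ± 0.32 in MCAO (adjusted p = 0.0981 by limma). Adam17 and Adam10, named for their role as the main sheddases and after their values were seen, differed by 0.69 ± 0.37 and -0.01 ± 0.18 in MCAO and were not called.

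Of 22 receptor adaptors and members of the MAP kinase cascade, 1 rose in each occluded group and none fell, with medians of -0.16 and -0.05. Without the 2 arrays 2 rose and 3 fell in MCAO, and 2 rose and 2 fell in VEGF, near the shares of all genes called in that fit. The gene that rose was Stat3, a transcription factor that EGFR and cytokine receptors activate. Its level was 1.88, 2.21 and 2.15 in sham, 4.64, 3.89 and 4.01 in MCAO, and 4.76, 4.09 and 3.83 in VEGF. That is a rise of 2.10 ± 0.30 in MCAO (adjusted p = 0.0103) and of 2.14 in VEGF (adjusted p = 0.0106, both by limma). Hras, a RAS gene, fell in the mean of both occluded groups (-0.94 ± 0.20, adjusted p = 0.037 by limma) and had an adjusted p of 0.057 in MCAO alone.

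Of 21 genes for receptor downregulation and feedback, 1 rose in each occluded group and none fell, with medians of 0.34 and 0.43. With those arrays left out, 5 rose and 2 fell in MCAO and 4 rose and 2 fell in VEGF. Socs3, an inhibitor of cytokine receptor signalling, went from -1.01, -1.54 and -0.39 in sham to 4.98, 3.94 and 4.14 in MCAO and 5.11, 3.55 and 3.54 in VEGF. It rose by 5.33 ± 0.50 (adjusted p = 0.00168) and 5.05 (adjusted p = 0.00237, both by limma). Errfi1 encodes MIG6, which binds the EGFR kinase and blocks it. Its level was 1.99, 2.47 and 2.37 in sham, 3.99, 3.10 and 3.26 in MCAO, and 4.64, 3.45 and 3.34 in VEGF. All occluded arrays lay above sham, yet the difference of 1.18 ± 0.39 in MCAO did not pass (adjusted p = 0.142 by limma). It did pass without MCAO array 1 and VEGF array 1, at 0.91 (adjusted p = 0.0163 by limma).

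Of 15 growth factor response genes, 4 rose in MCAO and 3 in VEGF and none fell, with medians of 0.99 and 1.13. With those arrays left out, 6 rose and 1 fell in each. Plaur, the urokinase receptor, rose by 5.51 ± 0.77 in MCAO (adjusted p = 0.00962) and by 5.60 in VEGF (adjusted p = 0.0104, both by limma). Its level was -3.39, -3.01 and -2.97 in sham against 1.46 to 4.22 on the occluded arrays. Fosl1, a partner in AP-1 transcription factors, rose by 4.71 ± 0.82 in MCAO (adjusted p = 0.0226) and 4.41 in VEGF (adjusted p = 0.0305, both by limma). Mcl1, which protects against cell death, rose by 1.07 ± 0.22 in MCAO (adjusted p = 0.0445) and 1.13 in VEGF (adjusted p = 0.0401, both by limma). Ier3, an immediate early gene, rose by 3.23 ± 0.64 in MCAO (adjusted p = 0.0376) and differed by 2.85 in VEGF (adjusted p = 0.0634, both by limma). Several of these genes also respond to cytokines, so the list does not belong to EGFR alone.

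**Figure D4:**
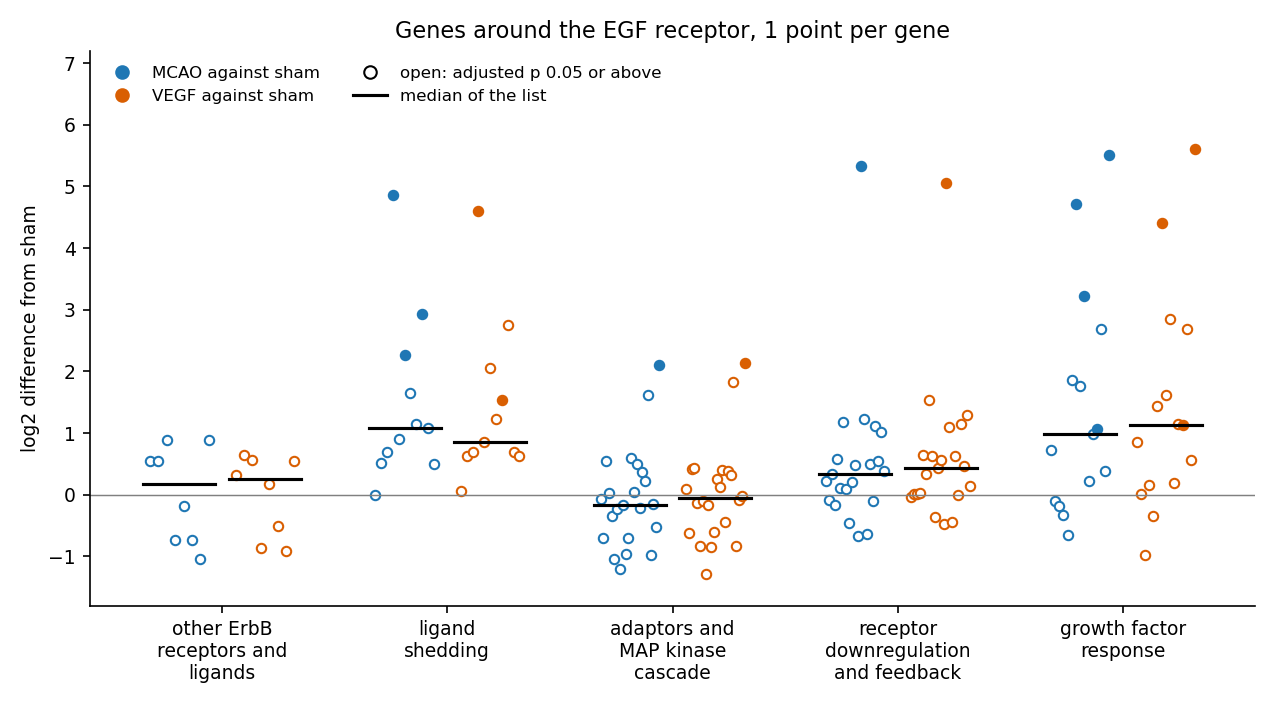
Log2 difference from sham (y axis) of every measured gene in the 5 pathway lists, 1 point per gene, MCAO in blue and VEGF in orange; filled points have an adjusted p below 0.05 and black lines are list medians. The shedding and growth factor response lists have 3 and 4 filled genes in MCAO, and the list of other ErbB receptors and ligands has none.

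The microglia and macrophage, neutrophil, endothelial and neuron marker lists differed most from sham on MCAO array 1 and VEGF array 1. Hbegf, Areg, Ereg, Btc and Tgfa were highest on these arrays. In bulk RNA fewer cells of a type and less RNA per cell cannot be told apart. Below, a summed level is the sum of a list's signals in multiples of the array's 75th percentile. Of all genes, 2.28% rose in MCAO and 2.07% in VEGF, and without those 2 arrays 9.78% and 8.71%. With all arrays, 165 of 30836 genes fell in MCAO and 110 in VEGF. The microglia and macrophage list (9 of 10 genes measured) summed to 90.4 to 112 in sham, 140 to 198 in MCAO and 123 to 307 in VEGF. Its 9 genes were well above background on every array, sham included, and 3 rose in each occluded group (6 in each without those 2 arrays). The neutrophil list (9 of 10 measured) summed to 84.7 to 107 in sham, 110 to 248 in MCAO and 103 to 227 in VEGF, with 4 genes risen in each, also without those arrays. Cxcr2 was the only neutrophil gene that no sham array detected.

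The endothelial list (10 of 10) summed to 43.9 to 48.8 in sham, 87.9 to 221 in MCAO and 74 to 316 in VEGF, with no gene risen and 1 fallen in each; without the 2 arrays 3 had risen and 1 had fallen in each. The neuron list (14 of 14) summed to 769 to 814 in sham, 190 to 617 in MCAO and 199 to 684 in VEGF, with no gene called in either group by limma, 4 with an unadjusted p below 0.05 in MCAO and 1 in VEGF, against 21.4% and 23.5% of all genes. Without the 2 arrays 5 neuron genes fell in MCAO and 3 in VEGF by limma. Of all 30836 genes, that fit called 4022 lower in MCAO and 3459 lower in VEGF. On MCAO array 1 and VEGF array 1 the list medians relative to the sham mean were 1.90 and 2.56 for endothelial, 1.74 and 2.61 for microglia and macrophage, and 1.99 and 2.03 for neutrophil markers. On the other 4 occluded arrays they were 0.30 to 0.65, 1.02 to 1.5 and 0.20 to 0.37. The 2 arrays where Hbegf, Areg, Ereg, Btc and Tgfa were highest were thus those with the highest leukocyte and endothelial and the lowest neuron markers. The part of these cell types in the ligand differences was not tested.

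The medians of the other lists did not follow the 2 arrays together. The choroid plexus and ependymal median on MCAO array 1 was 2.11, against -3.64 and -3.47 on VEGF arrays 1 and 3. Its summed level ranged from 31.9 to 110 in sham, 40.7 to 303 in MCAO and 3.11 to 164 in VEGF. By summed level the neural progenitor list was highest on MCAO array 1 (45.7) and VEGF array 1 (28). It was 11.7 to 15.6 on the other 4 occluded arrays and 9.83 to 11.1 in sham. The astrocyte median was -0.22 and 0.87 on those 2 arrays, the fibroblast and meningeal median -0.14 and 1.81, the oligodendrocyte median 1.81 and 0.28, the oligodendrocyte precursor median -0.92 and 0.22, and the neural progenitor median -0.47 and 0.00.

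**Figure D5:**
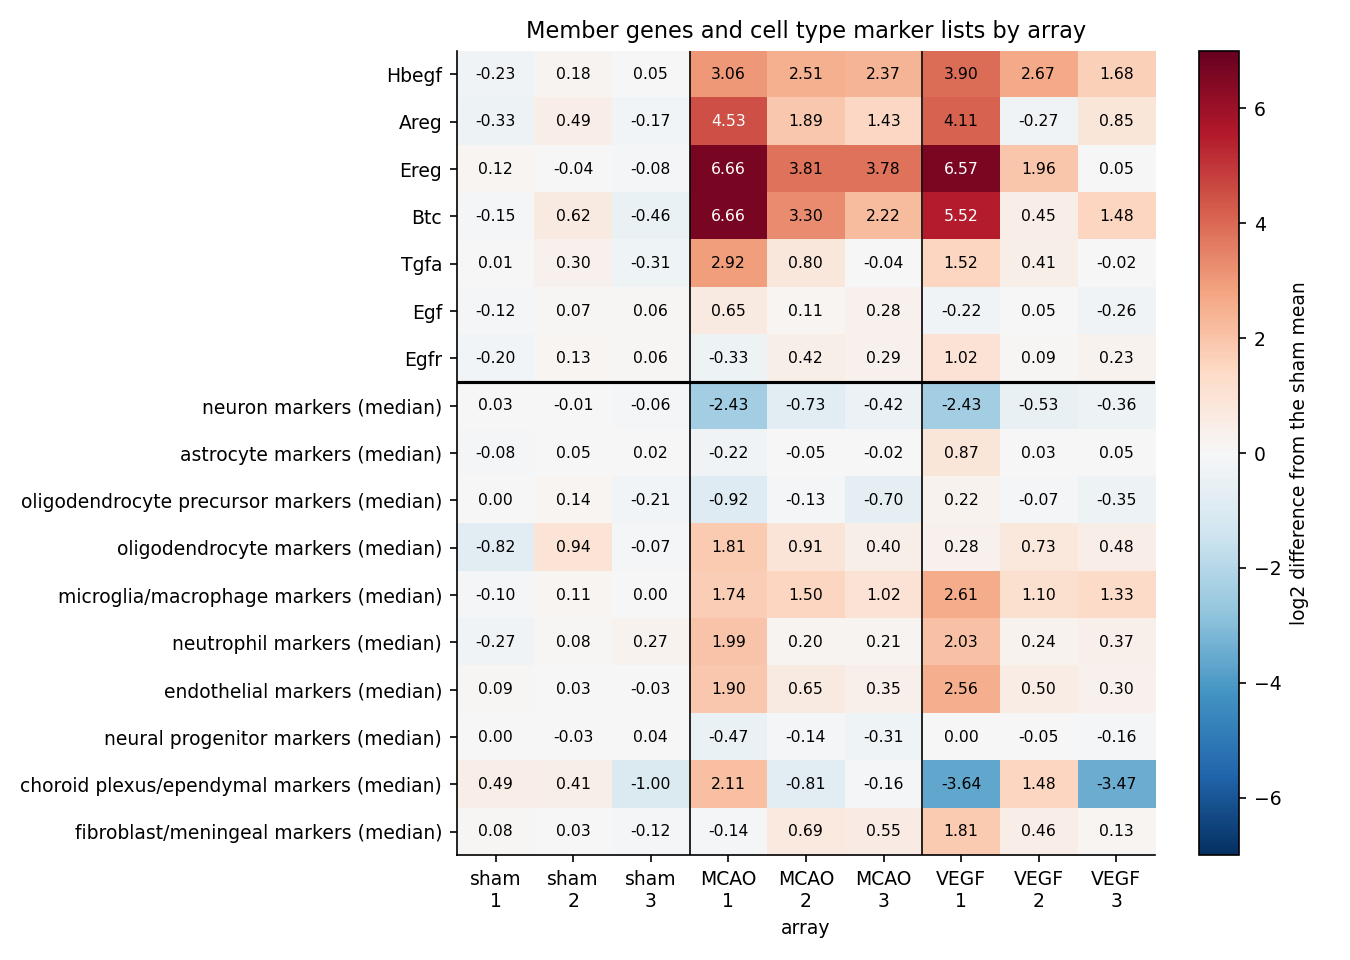
Log2 difference from the sham mean (colour and printed number) of the 7 members (upper rows) and the medians of 10 cell type marker lists (lower rows), by array. Hbegf, Areg, Ereg, Btc and Tgfa are highest on MCAO array 1 and VEGF array 1, where the neuron median is -2.43.

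For the members measured on all 9 arrays, the tested genes with the most similar pattern were found by Pearson correlation over the 9 arrays, among 30829 genes. The arrays share slides and groups, so these values describe likeness only. Hbegf was most like Tm4sf1 (r = 0.9968), a membrane protein of endothelial and other cells, Adgre1 (r = 0.9944), which encodes the macrophage marker F4/80 and is also in the microglia list, and Irak4 (r = 0.9943), a kinase of Toll-like receptor signalling. Tgfa was most like Gss (r = 0.9931), Gm17019 (r = 0.993) and Sde2 (r = 0.9927). Egf was most like an unnamed Ensembl transcript (r = 0.9693), Ctnnal1 (r = 0.9636) and Polr3g (r = 0.9548). Egfr was most like 2 array items with no gene symbol (r = 0.9728 and 0.9697) and Wnt5b (r = 0.955), a Wnt ligand.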

How the data were processed

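Total RNA from 9 mouse brains (200 ng each) was labelled with Cy3 and hybridised to 1-colour arrays, 3 per group. Signals were extracted with Agilent Feature Extraction 10.7.1.1, per the submitters' processing notes. The deposited scanner files hold the authors' processed intensity of each spot: the background-subtracted signal, divided by a spatial detrending factor, a ratio around 1 that the authors' files give for each spot, on 8 arrays but not on MCAO array 1 (recomputed within 0.02 log2). The deposited series matrix holds log2 values by the authors, with scale and centring not given in the sources used here; it served as an alternative.

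Control spots were left out, spots of a probe averaged as log2, and each array's 75th percentile subtracted. Probes had to be well above background in every mouse of some group (43920 of 55681 were), and each gene was read from its probe with the highest mean (30836 genes). Array accessions were named through RefSeq (26582 probes with a symbol). limma 3.58.1 in R 4.3.3 fitted 3 group means to all 9 arrays (8.48 degrees of freedom, 2.48 of them prior). On simulated 8-fold changes in MCAO against sham, 77.3% of changed genes were recovered (30836 genes), and 60% of 4-fold ones. The simulated noise was independent between arrays, equal in spread on all of them, and few genes were changed. In the data some arrays deviated together, so these rates need not hold for them. Having 3 mice a group limits precision; the labels name different mice for each experiment.

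Genes named in the text: every member; in each pathway list, up to 4 genes past the threshold in any comparison with the smallest p, or the 2 smallest where fewer passed; and the 3 genes most like each member measured on all arrays. The members and all lists were chosen with earlier results of these data known. Same-numbered MCAO and VEGF arrays deviated together (r = 0.587, 0.224 and 0.558 over genes), while sham arrays did not pair with either (r from -0.107 to 0.151). Alternatives tried were the background correction, normalisation, filter, probe choice, array weights, age, the replicate block, the samples fitted, and leaving out arrays.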

Additional observations from a re-analysis of the deposited data

How the results depend on the processing

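Hbegf was called in MCAO against sham, in VEGF against sham and in both occluded groups under every other scaling, background, filter and probe alternative run, under the replicate block (adjusted p = 0.0321, 0.03 and 0.0142 by limma) and with the age covariate. The block changed no other member's call, in the fit of all arrays and, chosen after seeing the data, in the fit of the MCAO and VEGF arrays alone with that block (0 members called). The number of members called in MCAO against sham was 1 in the text, 2 with the age covariate, 2 with only the groups compared (Hbegf and Ereg), 4 without MCAO array 1 and VEGF array 1, and 6 with array weights. Leaving out 1 array at a time it was 0 to 2. In VEGF against sham it was 2 with array weights, 0 with only the groups compared (Hbegf, adjusted p = 0.0516 by limma), and 0 to 1 with 1 array left out. In both occluded groups against sham it was 3 with array weights, 3 without the 2 arrays, and 0 to 1 with 1 array left out. In VEGF against MCAO it was 4 with array weights. The estimate of array weights did not converge and gave MCAO array 2 a weight of 57.6, so its calls were not used. Where an arm was left with 2 arrays the spread was pooled over groups.

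A sign turned for differences that the text does not call. For MCAO against sham, Egfr was -0.02 without MCAO array 2 and ranged up to 0.35 with 1 array left out. For VEGF against sham, Egf was 0.01 with normexp background and Areg -0.23 with array weights. For VEGF against MCAO, Areg was 0.03 with normexp background, Egfr -0.29 with array weights and -0.19 without the 2 arrays, Tgfa 0.26 without MCAO array 1 (lowest -1.22 with 1 array left out), and Hbegf -0.09 with the age covariate, -0.27 without the 2 arrays, and -0.48 to 0.64 with 1 array left out (-0.48 without VEGF array 1, -0.04 without MCAO array 3). A case here is 1 member in 1 setting of 1 comparison, and members share fits, so cases are not separate checks. Single-member differences were otherwise on the same side of the threshold in 560 cases. They were past it where the text was not in 19, and short of it where the text was past it in 14. The cause was not tested. Over all genes, the number called in MCAO against sham was 868 in the text, 558 with normexp background, 1594 with the age covariate, 1781 with only the groups compared, 7039 without the 2 arrays, 18457 with array weights and 191 to 2573 with 1 array left out. In VEGF against sham it was 748 in the text, 440 with normexp background, 6144 without the 2 arrays, 13192 with array weights and 157 to 3262 with 1 array left out. In both occluded groups it was 1734, against 2788 with the age covariate, 9488 without the 2 arrays, 16343 with array weights and 361 to 4036 with 1 array left out. In VEGF against MCAO it was 2, against 8394 with array weights and 0 to 4 otherwise. The median of all genes in VEGF against sham was -0.12, and 0.02 with normexp background. With only probes detected on all arrays, Areg, Ereg and Btc left the test. Signal limits Areg and Ereg, which were below detection in sham.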
